A study of Mus musculus with 6 samples.

Results

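Aminoacyl-tRNA synthetases are the enzymes that join each amino acid to its transfer RNA (tRNA), the step that supplies charged tRNA to the ribosome. The genes described here are 36 of these enzymes' genes, picked by exact gene symbol from the 52636 genes of the deposited table: 20 encode enzymes of the cytosol and 16, with symbols ending in 2, encode enzymes of mitochondria. All 36 symbols were found, each on a single row. Animal cells keep largely separate enzyme sets for cytosolic and mitochondrial translation. Gars (glycine) and Kars (lysine) each supply both compartments from 1 gene, and mitochondria make glutaminyl-tRNA through an amidotransferase. Several cytosolic enzymes are held in a large multisynthetase complex, and many cytosolic synthetase genes are known targets of ATF4, the transcription factor that amino acid shortage and other stresses induce through the eIF2 alpha kinases.

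The 6 RNA sequencing libraries were made from the mouse line MC38, which derives from a colon tumour and was grown in RPMI medium with fetal bovine serum and given no treatment. The WT group (genotype M1E5 WT, 3 libraries) and the group labelled Zfx F5 (genotype M1E5 Zfx F5, 3 libraries) both come from a derivative named M1E5. In the second, Zfx, the gene of an X-linked zinc finger transcription factor, was targeted with transfected CRISPR ribonucleoprotein. The F5 group is a single edited line, so any difference between that line and WT that is unrelated to the edit cannot be told apart from it. Replicate numbers only name the libraries, in the order of the sample records. The labels do not tie the libraries of a group to separate cultures, and the p-values therefore measure a library-to-library spread that may be technical.

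The libraries held 18876673 to 24241864 reads, and every synthetase had at least 239 reads in every library. Zfx itself, measured in CPM (reads scaled to a common library total), was at 64.4, 69.7 and 68.9 CPM in WT and at 125, 129 and 122 CPM in the libraries labelled Zfx F5, a higher level (limma adjusted p = 3.47e-18) where the label names a targeted gene. The directions below therefore rest on the group labels, which the level of Zfx mRNA could not check. Of 9 colon epithelial markers only Cdh1 passed the filter on low values, with a summed level of the list of 1.22 to 1.94 CPM in WT and 4.20 to 4.66 CPM in the libraries labelled Zfx F5, and Epcam, Krt19 and Krt20 at 0 in all libraries. The summed level of 8 myeloid markers was 11.0 to 13.6 and 25.6 to 27.8 CPM, with Lyz2 the only member called and Adgre1 and Tyrobp at 0 in all libraries. Endothelial markers summed to 12.9 to 13.9 and 33.9 to 39.1 CPM, with Kdr and Tek at 0. Fibroblast markers went both ways: Col3a1 (874 ± 21.3 to 3335 ± 68.4 CPM, SD, n = 3), Pdgfrb and Pi16 were higher, Pdgfra (247 ± 7.21 to 78.6 ± 2.00 CPM) and Dcn (120.0 ± 0.754 to 33.9 ± 0.911 CPM) were lower, and Thy1 was at 0. The sum of that list, 1252 to 1285 and 3420 to 3548 CPM, was mostly Col3a1, and the T and NK cell list did not pass 0.189 CPM in any library. Cdh1, Lyz2 and Pi16 averaged below the filter in WT and were kept only through the libraries labelled Zfx F5. The part of these marker lists in the synthetase results was not tested.

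Synthetase mRNAs differed widely in level. Per kilobase of exon, Nars (asparagine) was the most abundant in WT at 419 ± 3.79 CPM per kb (SD, n = 3), followed by Tars (threonine) at 353 ± 1.34 and Rars (arginine) at 295 ± 9.02 CPM per kb. The lowest cytosolic level was that of Qars (glutamine) at 36.9 ± 1.01 CPM per kb. Mitochondrial enzymes lay lower, from Mars2 (methionine) at 3.20 ± 0.0715 CPM per kb to Lars2 (leucine) at 47.1 ± 4.62 CPM per kb. The last place of Mars2 rests on its annotated exon length of 11.3 kb. Before scaling by length its WT mean was 36.1 CPM, above Pars2 at 13.9 CPM and Sars2 at 12.9 CPM. Lars2 was the only mitochondrial member that reached the cytosolic range, level with Dars (aspartate, 46.6 ± 1.17 CPM per kb) and Cars (cysteine, 44.4 ± 1.76 CPM per kb). The class medians in WT were 96.3 CPM per kb for the cytosolic and 8.68 CPM per kb for the mitochondrial enzymes, and in the libraries labelled Zfx F5 121 and 10.6 CPM per kb. In the order of WT levels, 14 of the 35 neighbouring pairs had overlapping libraries, among them Aars (alanine) with Eprs and Eprs with Gars.

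**Figure D1:**
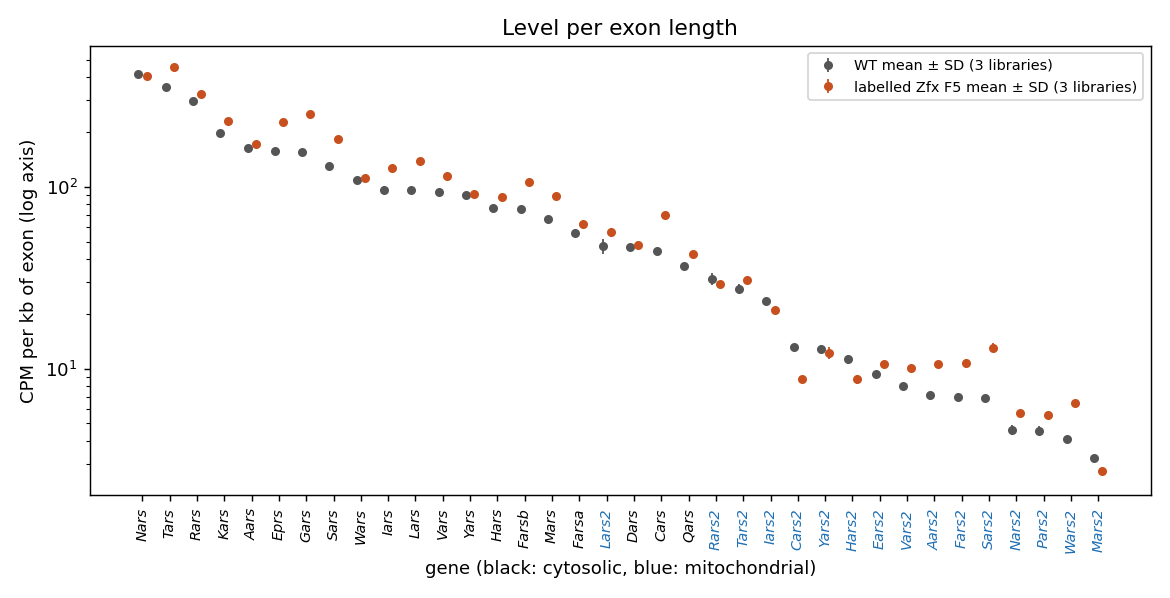
Mean level of each synthetase gene in CPM per kb of exon (log axis) with the SD over 3 libraries, in WT (grey) and in the libraries labelled Zfx F5 (orange), ordered by the WT level. Cytosolic genes (black names) take the first 17 places, and Mars2, with an annotated exon length of 11.3 kb, is the lowest per kb in both groups.

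In the comparison of the groups, the 20 cytosolic members were mostly higher in the libraries labelled Zfx F5. None of them was called lower, except Nars under TMM scaling. In limma, on the deposited log2(CPM + 0.0353) values with Benjamini-Hochberg adjustment over all 12279 genes kept, 16 of the 20 cytosolic members passed an adjusted p of 0.05, all of them higher. Over all kept genes 72.9% passed, 37.0% higher and 35.9% lower, so the share of cytosolic members called (80.0%) was near that background, whereas by direction they stood at 16 higher and 0 lower. Their median log2 difference was 0.25 against 0.02 over all kept genes, with a range of -0.04 to 0.69. The changes were small: none of the 36 members reached a 2-fold difference, which 10.1% of all kept genes did. Tarsl2, a cytosolic threonine enzyme outside the member list, was 3.56-fold lower and is described with the charging genes below. The groups did not overlap for 17 cytosolic members, 16 of them higher, where 74.3% of all kept genes did not overlap and 37.8% did so with the libraries labelled Zfx F5 higher.

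Gars, the glycine enzyme, rose the furthest of the cytosolic members. It measured 380.0, 361 and 372 CPM in the WT libraries and 602, 605 and 593 CPM in the libraries labelled Zfx F5. The lowest of the latter stood well above the highest WT library, and the rise was 1.62-fold (limma adjusted p = 5.36e-19), with a log2 difference of 0.69 and an SE of 0.030. Gars (ENSMUSG00000029777) lies on the plus strand of chromosome 6 from 55038007 to 55079500 in mm10.

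Cars, the cysteine enzyme (ENSMUSG00000010755, chromosome 7 from 143557230 to 143600090, minus strand), was next. Its levels of 149.7, 139.9 and 139.8 CPM in WT and 222, 231 and 221 CPM in the libraries labelled Zfx F5 were clearly apart. The log2 difference was 0.65 (SE 0.036), 1.57-fold, with a limma adjusted p of 2.51e-16.

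Members of the multisynthetase complex rose in 7 of 8 cases (87.5%, against 37.0% of all kept genes called higher and 72.9% called in either direction), with a median log2 difference of 0.31. Eprs, a fused enzyme for glutamate and proline, measured 752, 765 and 811 CPM in WT and 1119, 1136 and 1108 CPM in the libraries labelled Zfx F5. Its groups were far apart relative to their spread, with a log2 difference of 0.53 (SE 0.030) and a limma adjusted p of 2.30e-16. Lars, the leucine enzyme that also acts as a leucine sensor upstream of mTORC1, had 373, 365 and 373 CPM in WT against 540.3, 547 and 528 CPM. This was a 1.45-fold rise (log2 difference 0.54, SE 0.030, limma adjusted p = 2.05e-16). Mars (methionine, 1.33-fold), Iars (isoleucine, 1.32-fold), Kars (1.17-fold), Qars (1.15-fold) and Rars (1.09-fold) rose by less. Dars was the exception, at 113, 114 and 118 CPM in WT and 122, 119 and 114 CPM in the libraries labelled Zfx F5, so the groups overlapped and the gene missed the threshold (limma adjusted p = 0.334).

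The scaffold proteins that hold the complex together did not move as 1 group. Aimp2 rose from 61.7 ± 4.05 to 82.1 ± 2.71 CPM (SD, n = 3; 1.33-fold, limma adjusted p = 4.65e-09). Aimp1, which binds the arginine enzyme, measured 162 ± 1.64 and 160.5 ± 3.60 CPM and did not pass (limma adjusted p = 0.681). Eef1e1, also called p18 or AIMP3, had 124 ± 3.33 and 117 ± 1.84 CPM, and its log2 difference of -0.08, with an SE of 0.038, missed the threshold (limma adjusted p = 0.0508). Eef1e1 was called lower with the stricter filter (limma adjusted p = 0.0478), with TMM scaling (0.00652) and without WT replicate 3 (0.0205), in a range of 0.00652 to 0.201 over its alternatives. The sign of the Aimp1 difference turned with median centring.

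Among the 12 cytosolic members outside the complex, 9 rose (75.0%, against the same shares of all kept genes) and 3 did not pass, with a median log2 difference of 0.24. Beside Gars and Cars, Sars (serine) rose 1.40-fold, Tars 1.29-fold and Vars (valine) 1.22-fold. Sars was at 489, 470.2 and 469.5 CPM in WT and 665, 670.1 and 666 CPM in the libraries labelled Zfx F5. Both subunits of the cytosolic phenylalanine enzyme rose, by unequal amounts: Farsb, the beta chain, by 0.50 on the log2 scale (SE 0.035) and Farsa, the alpha chain, by 0.16 (SE 0.041). The ratio of Farsb to Farsa per kb was 1.31, 1.29 and 1.47 in WT and 1.66, 1.74 and 1.74 in the libraries labelled Zfx F5, so the groups of ratios did not overlap (2-sided exact permutation p = 0.1, which is the lowest value possible with 3 against 3 libraries). Hars (histidine) rose 1.15-fold.

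The cytosolic members that did not pass included the most abundant one. Nars measured 1113, 1093 and 1102 CPM in WT and 1084, 1085 and 1059.6 CPM in the libraries labelled Zfx F5, a log2 difference of -0.04 (SE 0.027) with a limma adjusted p of 0.237. Its groups did not overlap, and with TMM scaling it passed as lower (limma adjusted p = 0.0227, range over its alternatives 0.0227 to 0.835). Yars (tyrosine) measured 267, 257 and 261 CPM in WT and 267, 259.98 and 267 CPM in the other group, and its log2 difference was 0.02, with an SE of 0.032 (limma adjusted p = 0.645). The sign of the Yars difference turned under TMM scaling. Aars was called but only just, at 952, 944 and 934 CPM in WT and 989, 991 and 993 CPM in the libraries labelled Zfx F5 (log2 difference 0.07, SE 0.027, limma adjusted p = 0.0183). That call was lost with TMM scaling (limma adjusted p = 0.238), without trend and robust moderation (0.0890), and without any 1 of the 3 libraries labelled Zfx F5 (0.0559 to 0.0593), in a range of 0.00230 to 0.238 over its alternatives. Aars also shares 1326 exon bases with Exosc6, which is listed at 0 CPM in all libraries, so reads of the shared part cannot be assigned to 1 gene.

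**Figure D2:**
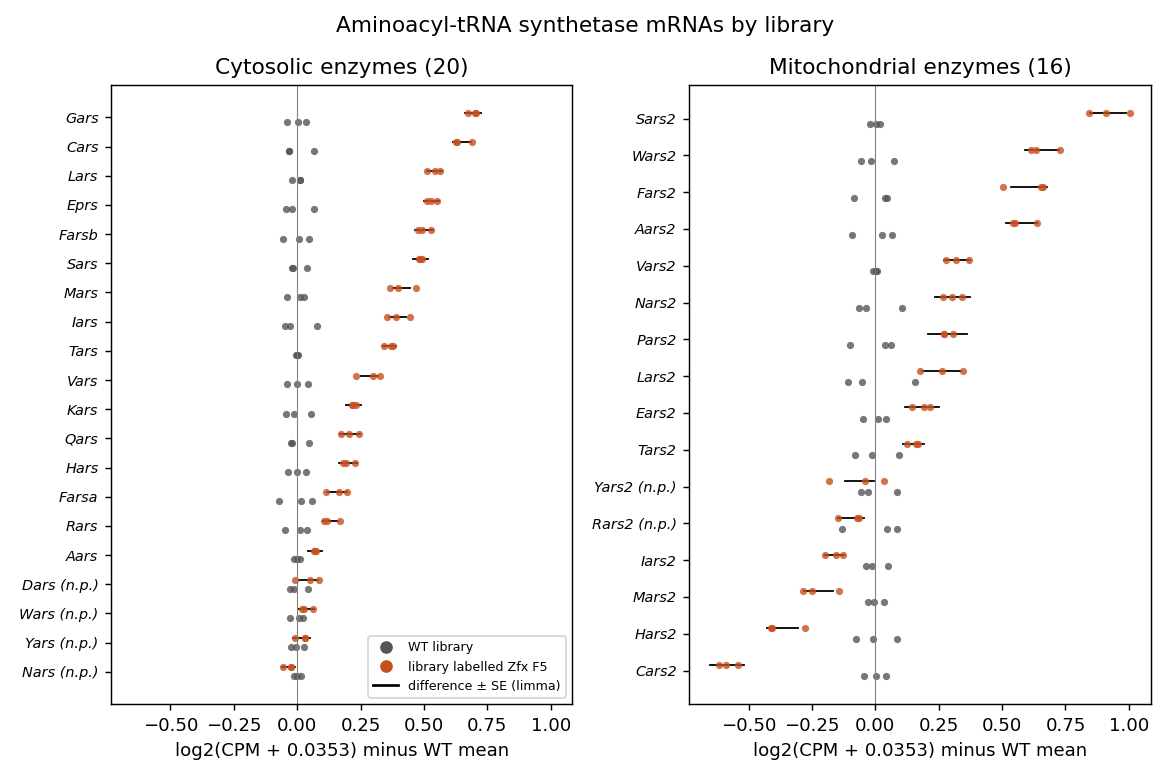
Each point is 1 library's log2(CPM + 0.0353) value minus the WT mean of that gene, for 20 cytosolic (left) and 16 mitochondrial enzymes (right), with WT in grey and the libraries labelled Zfx F5 in orange; black bars are the difference ± SE from limma, and n.p. marks genes that did not pass. Cytosolic differences run from -0.04 to 0.69 and mitochondrial ones from -0.58 to 0.92.

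The amino acid response is read from DNA by a composite element bound by C/EBP and ATF4 proteins, and the promoter windows that hold its letters are shown to set them beside the values above. Promoter windows of 300 bases, from 250 before to 50 after the start site, came from RefSeq on GRCm38.p6, the assembly that mm10 names, and were found for 27 of the 36 members, 13 cytosolic and 14 mitochondrial. The letters TGATGNAA, searched on both strands, occurred in the windows of 5 cytosolic genes (Gars, Iars, Tars, Aars and Yars) and of 0 mitochondrial genes. Over all genes with a window, 4.51% held them. Capitals mark each match, which reads as its reverse complement except in Yars.
Gars, chr6:55037751-55038050, plus strand: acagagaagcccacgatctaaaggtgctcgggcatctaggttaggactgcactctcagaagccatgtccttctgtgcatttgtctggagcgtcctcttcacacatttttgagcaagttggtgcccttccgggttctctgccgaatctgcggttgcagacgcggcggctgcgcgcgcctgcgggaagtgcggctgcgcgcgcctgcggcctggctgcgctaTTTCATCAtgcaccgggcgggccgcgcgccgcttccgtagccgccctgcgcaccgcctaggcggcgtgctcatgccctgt
Iars, chr13:49681880-49682179, plus strand: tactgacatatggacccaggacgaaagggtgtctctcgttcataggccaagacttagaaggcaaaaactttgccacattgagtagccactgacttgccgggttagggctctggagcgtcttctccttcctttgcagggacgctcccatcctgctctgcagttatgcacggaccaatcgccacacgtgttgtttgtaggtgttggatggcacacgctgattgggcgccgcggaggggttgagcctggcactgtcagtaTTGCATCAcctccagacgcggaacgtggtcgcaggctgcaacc
Tars, chr15:11399609-11399908, minus strand: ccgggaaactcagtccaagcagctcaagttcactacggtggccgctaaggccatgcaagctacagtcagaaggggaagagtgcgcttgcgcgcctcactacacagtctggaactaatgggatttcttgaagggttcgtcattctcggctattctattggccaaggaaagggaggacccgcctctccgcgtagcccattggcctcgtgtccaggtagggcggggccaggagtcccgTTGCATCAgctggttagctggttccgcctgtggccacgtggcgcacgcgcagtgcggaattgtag
Aars, chr8:111033592-111033891, plus strand: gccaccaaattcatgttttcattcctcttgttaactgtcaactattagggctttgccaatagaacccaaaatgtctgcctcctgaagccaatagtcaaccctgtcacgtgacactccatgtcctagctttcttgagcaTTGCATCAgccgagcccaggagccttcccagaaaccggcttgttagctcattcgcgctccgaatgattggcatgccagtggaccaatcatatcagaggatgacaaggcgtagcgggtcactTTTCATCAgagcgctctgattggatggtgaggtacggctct
Yars, chr4:129189653-129189952, plus strand: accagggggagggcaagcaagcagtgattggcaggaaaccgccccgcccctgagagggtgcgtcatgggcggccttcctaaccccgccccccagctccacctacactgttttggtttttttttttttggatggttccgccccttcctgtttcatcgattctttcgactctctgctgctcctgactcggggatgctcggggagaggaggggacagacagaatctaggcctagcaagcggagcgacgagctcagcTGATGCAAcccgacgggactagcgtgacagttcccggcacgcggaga

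Only the bases from 250 before to 50 after the start site were searched, so the window itself keeps every match near the start. The first base of the match was 30 bases before the start in Gars and 15 before it in Tars. It was 7 after the start in Iars and 3 after it in Yars, while Aars had matches 112 before and 9 after the start. These genes did not share a size of change: Gars, Iars and Tars had log2 differences of 0.69, 0.40 and 0.36, whereas Aars (0.07) and Yars (0.02, not past) were near 0. The 8 cytosolic genes with a window and no match rose in 7 cases (87.5%) with a median log2 difference of 0.32. Those with a match rose in 4 of 5 cases (80.0%), with a median of 0.36. Of all 20 cytosolic members 80.0% were called higher, and of all kept genes 37.0% were called higher and 72.9% in either direction. For scale, the windows of the mitochondrial genes with the largest rise and the largest fall, which hold no match, read as follows.
Sars2, chr7:28741718-28742017, plus strand: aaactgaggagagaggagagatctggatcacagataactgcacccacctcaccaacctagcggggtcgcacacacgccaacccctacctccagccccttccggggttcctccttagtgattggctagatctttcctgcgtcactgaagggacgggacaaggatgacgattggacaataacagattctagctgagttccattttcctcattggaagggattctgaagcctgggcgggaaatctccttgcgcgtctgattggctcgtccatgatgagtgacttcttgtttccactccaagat
Cars2, chr8:11550722-11551021, minus strand: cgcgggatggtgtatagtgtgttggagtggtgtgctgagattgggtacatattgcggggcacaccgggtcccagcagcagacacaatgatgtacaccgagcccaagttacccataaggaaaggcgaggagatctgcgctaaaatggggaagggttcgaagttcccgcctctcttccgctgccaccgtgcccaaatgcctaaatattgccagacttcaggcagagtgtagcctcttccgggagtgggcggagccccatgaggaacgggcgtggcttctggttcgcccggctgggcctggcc

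Other motifs were searched on both strands of the same windows. CACGTG, the E-box bound by Myc and related factors, was found in 4 of 13 cytosolic windows (Aars, Farsb, Iars and Tars) and in 1 of 14 mitochondrial ones (Ears2), against 8.09% of all genes. AGGCCT, the core of the motif described for Zfx, was found in 3 (Farsb, Sars and Yars) and 2 (Lars2 and Yars2), against 11.6%. The interferon-stimulated response element was in the Qars window alone (3.99% of all genes), and the STAT element TTCNNNGAA in those of Aars, Kars and Nars2 (9.55%). A match is a description of letters in a window and does not show binding.

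Mitochondrial synthetase mRNAs moved in both directions. Of 16 members 10 were higher (62.5%) and 4 lower (25.0%) in limma, against 37.0% and 35.9% of all kept genes, and 2 did not pass. The median log2 difference was 0.22 and the range, -0.58 to 0.92, was wider than that of the cytosolic class. Levels were lower and the median SE larger, at 0.064 against 0.032 for the cytosolic members. The groups did not overlap for 14 members (87.5%), the same 10 higher and 4 lower. Of all kept genes 74.3% did not overlap, 37.8% higher and 36.5% lower.

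Sars2, the mitochondrial serine enzyme (ENSMUSG00000070699, chromosome 7 from 28741992 to 28753871, plus strand), rose the furthest of all 36 genes. It measured 12.9, 12.7 and 13.0 CPM in the WT libraries and 23.1, 24.2 and 25.8 CPM in the libraries labelled Zfx F5. The WT values were nearly equal and the other group lay well above them, with a log2 difference of 0.92 (SE 0.073), 1.89-fold, and a limma adjusted p of 1.06e-12.

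Wars2, the mitochondrial tryptophan enzyme, rose from 17.3, 19.0 and 17.8 CPM to 27.6, 29.9 and 28.0 CPM (1.58-fold, limma adjusted p = 2.79e-10). Fars2, a single-chain phenylalanine enzyme unlike its cytosolic counterpart of paired subunits, rose from 16.9, 15.5 and 16.9 CPM to 26.0, 25.8 and 23.3 CPM (1.52-fold, limma adjusted p = 5.94e-09). Aars2, the alanine enzyme, went from 25.0, 24.3 and 22.4 CPM to 34.9, 35.0 and 37.2 CPM (1.49-fold, limma adjusted p = 7.80e-10). In none of these did a library of 1 group reach the range of the other. Vars2 (valine), Nars2 (asparagine), Pars2 (proline) and Lars2 rose 1.25-fold, 1.23-fold, 1.22-fold and 1.20-fold, and Ears2 (glutamate) and Tars2 (threonine) by 0.18 and 0.15 on the log2 scale.

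The calls of Lars2 and Ears2 were each lost when a library was left out. Lars2 measured 176, 204 and 169.7 CPM in WT and 232, 206 and 219 CPM in the libraries labelled Zfx F5, and without WT replicate 1 its limma adjusted p was 0.0657, within 2.08e-11 to 0.0657 over its alternatives. Ears2 did not pass without WT replicate 3 (limma adjusted p = 0.0552) or without Zfx F5 replicate 2 (0.0559), in a range of 0.00581 to 0.0559.

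Cars2, the mitochondrial cysteine enzyme (ENSMUSG00000056228, chromosome 8 from 11513977 to 11550783, minus strand), fell the furthest. It measured 25.7, 25.1 and 24.3 CPM in WT and 16.3, 16.6 and 17.1 CPM in the libraries labelled Zfx F5. The groups were clearly apart in the direction opposite to Cars, with a log2 difference of -0.58 (SE 0.067), 1.50-fold lower, and a limma adjusted p of 4.54e-09. Cars2 shares 422 exon bases with Naxd on the opposite strand, which was higher by 0.21 on the log2 scale.

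Hars2 (histidine) fell from 37.3, 35.6 and 39.8 CPM to 31.0, 28.2 and 28.2 CPM (1.29-fold lower, limma adjusted p = 2.52e-06). It lies head to head with Hars on chromosome 18 and shares 195 exon bases with it, yet Hars rose. Mars2 (methionine), annotated as 1 exon, fell 1.17-fold (limma adjusted p = 0.000804). Iars2 (isoleucine) fell 1.12-fold (limma adjusted p = 0.000271), but 2034 of its exon bases overlap Rab3gap2 on the other strand, whose own log2 difference was -0.16 like that of Iars2. If the unstranded Nextera XT preparation named in the labels was used, the reads of such overlaps cannot be assigned to 1 gene.

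Rars2 (arginine) and Yars2 (tyrosine) did not pass, with overlapping groups. Rars2 had 60.3, 53.3 and 61.8 CPM in WT and 55.8, 55.4 and 52.7 CPM in the libraries labelled Zfx F5 (log2 difference -0.10, SE 0.052, limma adjusted p = 0.102). It passed as lower with TMM scaling (limma adjusted p = 0.0265) and without WT replicate 2 (0.00783), in a range of 0.00783 to 0.382. The Yars2 difference was -0.06 on the log2 scale, with an SE of 0.059 (limma adjusted p = 0.344), so neither tyrosine enzyme passed.

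Setting the cytosolic and mitochondrial enzyme of the same amino acid side by side within each library gave 16 ratios, with Farsa standing for the cytosolic phenylalanine enzyme. The 2 groups of ratios did not overlap for 14 of them: in 9 the balance lay further to the cytosolic enzyme in the libraries labelled Zfx F5 and in 5 further to the mitochondrial one. With Farsb in place of Farsa these counts were 13, 9 and 4. Eprs stands in both the glutamate and the proline ratio, so the 9 count its rise more than once. For the levels of single genes, a measure unlike these ratios, 74.3% of all kept genes did not overlap between the groups. No ratio could pass a threshold of 0.05, since the exact permutation p cannot go below 0.1 with 3 against 3 libraries. After Benjamini-Hochberg adjustment over 16 ratios that p was 0.114 for each of the 14.

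The cysteine pair moved the most. The ratio of Cars to Cars2 per kb was 3.43, 3.30 and 3.40 in WT and 8.04, 8.21 and 7.62 in the libraries labelled Zfx F5, since Cars rose and Cars2 fell. The methionine pair went from 20.8 ± 0.429 to 32.5 ± 2.49 (SD, n = 3), the histidine pair from 6.81 ± 0.343 to 10.1 ± 0.615 and the isoleucine pair from 4.10 ± 0.0674 to 6.04 ± 0.0557. In all these pairs the cytosolic gene was called higher and the mitochondrial gene lower. The isoleucine ratio carries the limit given above, since 2034 exon bases of Iars2 overlap Rab3gap2. The exon length of Mars2 (11.3 kb) enters the methionine ratio in both groups alike, so it sets the level of that ratio but not its change.

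The ratios lay the other way, without overlap, for tryptophan, alanine, serine and asparagine, and for phenylalanine with Farsa but not with Farsb. The ratio of Farsa to Fars2 per kb was 8.05, 8.55 and 7.40 in WT and 5.78, 5.69 and 6.09 in the libraries labelled Zfx F5, whereas that of Farsb to Fars2 overlapped, at 10.5, 11.0 and 10.8 in WT and 9.60, 9.91 and 10.6 in the other group. The ratio of Wars to Wars2 per kb was 27.8, 25.7 and 26.4 in WT and 18.2, 16.4 and 17.4 in the libraries labelled Zfx F5, with Wars near its WT level and Wars2 higher. For alanine the ratio went from 23.0 ± 1.13 to 16.2 ± 0.555 (SD, n = 3), and for serine from 19.0 ± 0.496 to 14.1 ± 0.773 although both serine genes rose. The valine and tyrosine ratios overlapped between groups, at 11.7 ± 0.367 and 11.4 ± 0.607 for Vars to Vars2 and 7.05 ± 0.458 and 7.47 ± 0.674 for Yars to Yars2.

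**Figure D3:**
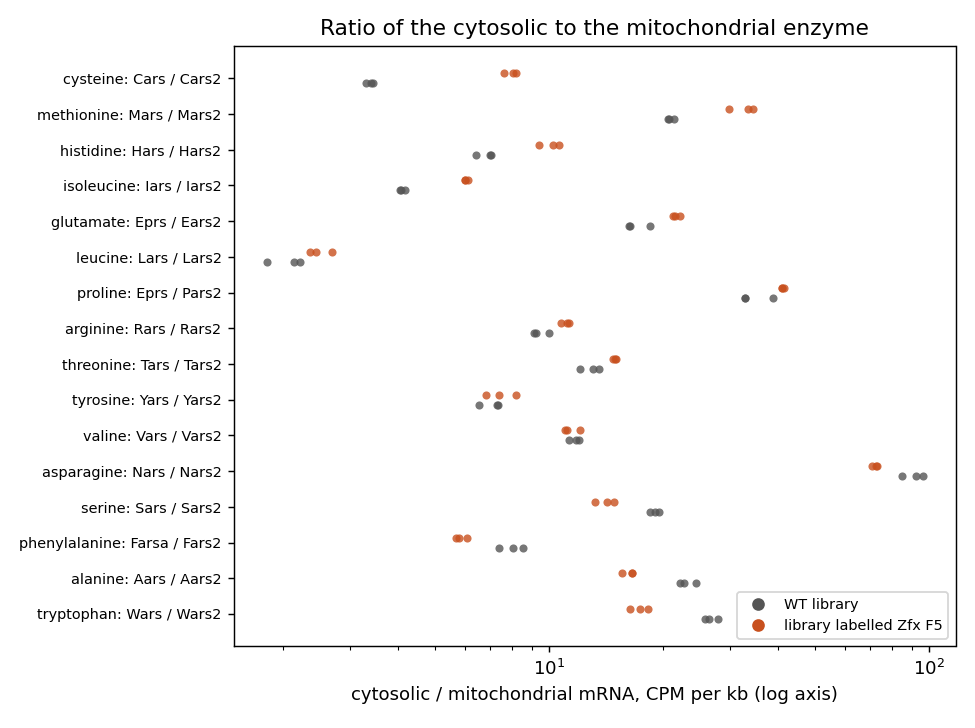
Ratio of the cytosolic to the mitochondrial mRNA for the same amino acid, from CPM per kb of exon (log axis), 1 point per library, with WT in grey and the libraries labelled Zfx F5 in orange. The cysteine ratio lies between 3.30 and 3.43 in WT and between 7.62 and 8.21 in the other group, and the valine and tyrosine ratios overlap.

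Summed over the class, cytosolic synthetase mRNA took 8464, 8314 and 8443 CPM in WT and 10289, 10325 and 10172 CPM in the libraries labelled Zfx F5, a ratio of means of 1.22. Mitochondrial synthetase mRNA summed to 818, 822 and 808 CPM and to 891, 880.4 and 875 CPM, a ratio of 1.08. Neither sum overlapped between groups. In bulk RNA, a change in every cell and a change in the mix of cells cannot be told apart.

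Genes that work beside the synthetases moved to different extents. Their lists were set by function, with earlier results of these data known. Of 11 kept genes for editing and other steps of charging, 5 rose and 2 fell, so that 63.6% were called against 72.9% of all kept genes and 45.5% were higher against 37.0%. The list had 3 higher members without Zfx F5 replicate 1. The largest change was in Tarsl2, a second cytosolic threonine enzyme, at 26.1, 23.8 and 26.9 CPM in WT and 7.46, 7.59 and 6.46 CPM in the libraries labelled Zfx F5. It fell 3.56-fold (log2 difference -1.83, SE 0.085, limma adjusted p = 2.66e-18) while Tars rose. Gatb and Qrsl1, subunits of the mitochondrial amidotransferase that makes glutaminyl-tRNA, rose 1.86-fold and 1.23-fold, and the third subunit gene Gatc fell 1.11-fold (limma adjusted p = 0.00726). The Gatc call was lost without WT replicate 3 (0.0637), without Zfx F5 replicate 3 (0.0631) and without trend and robust moderation (0.0625), in a limma adjusted p range of 0.00119 to 0.0637. Prorsd1, a relative of editing domains, rose 1.22-fold (limma adjusted p = 0.0194), a call lost without WT replicate 2 (0.0523) or without Zfx F5 replicate 1 (0.126), in a range of 0.0102 to 0.126.

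Eef1a1, the cytosolic elongation factor that carries charged tRNA to the ribosome, rose 1.35-fold. Of the subunits of its exchange factor, Eef1g (1.89-fold) and Eef1b2 (1.28-fold) rose and Eef1d, at 216 ± 6.98 and 209 ± 5.28 CPM, did not pass (limma adjusted p = 0.293). Genes of this family have processed pseudogene copies, so their levels from short reads are uncertain. Of 9 mitochondrial translation factor genes 7 rose (77.8%, against 37.0% of all kept genes higher and 72.9% called) and 2 did not pass, with a median log2 difference of 0.40. Tufm, the mitochondrial EF-Tu, rose 1.43-fold from 3.52 ± 0.130 CPM, a low level that rests on 67 to 111 reads per library. Mtrf1 (a release factor) rose 1.41-fold, Mrrf (ribosome recycling) 1.41-fold and Mtif2 (initiation) 1.36-fold.

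Genes of amino acid synthesis and transport were mostly higher. Of 12 kept amino acid synthesis genes 11 rose (91.7%, against 37.0% of all kept genes) and 1 fell, with a median log2 difference of 0.60. Pycr1, the last enzyme of proline synthesis, rose from 38.2, 39.0 and 38.4 CPM to 79.4, 77.0 and 71.0 CPM (1.96-fold, limma adjusted p = 2.14e-17). Cth, which makes cysteine, rose 1.85-fold, the mitochondrial serine hydroxymethyltransferase gene Shmt2 1.73-fold and Phgdh, the entry enzyme of serine synthesis, 1.64-fold. Glul, glutamine synthetase, was the member that fell (1.60-fold lower, limma adjusted p = 6.35e-13). Of 9 kept amino acid transporter genes 7 rose (77.8%, against 37.0% of all kept genes higher and 72.9% called) and 2 did not pass, of which 1 was called lower with TMM scaling. The 4 with the largest rises were the glycine transporter Slc6a9 (2.20-fold), the cystine transporter Slc7a11 (1.87-fold), the leucine transporter Slc7a5 (1.36-fold) and the glutamine transporter Slc1a5 (1.30-fold).

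Genes of the amino acid stress response were called about as often as genes at large, at 73.3% against 72.9% of all kept genes. Of 15 genes 7 were higher (46.7%, against 37.0% of all kept genes) and 4 lower, with a median log2 difference of 0.09. Atf4 mRNA, chosen after its value was seen, measured 779, 777 and 743 CPM in WT and 1021, 992 and 1010.2 CPM in the libraries labelled Zfx F5 (1.32-fold, limma adjusted p = 1.08e-13). Asns, the asparagine synthetase gene often read as an ATF4 target and chosen after its value was seen, rose 1.58-fold. Ddit4, an mTORC1 inhibitor, rose 1.59-fold. By contrast Ddit3, which encodes CHOP, fell from 118, 109 and 103 CPM to 55.5, 52.5 and 60.4 CPM (1.95-fold lower), Atf3 fell 1.83-fold and Eif2ak4, the kinase GCN2 that senses uncharged tRNA, 1.51-fold. Ddit3 shares 68 exon bases with Mars on the opposite strand, and Mars rose.

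Wars, the cytosolic tryptophan enzyme, is known in human cells for strong induction by interferon gamma. Here it measured 314, 317 and 306 CPM in WT and 326, 318 and 316 CPM in the libraries labelled Zfx F5. The groups overlapped, with a log2 difference of 0.04 (SE 0.032) and a limma adjusted p of 0.298 that stayed above 0.05 in all its alternatives (0.0730 to 0.959). In the same libraries 11 of 12 kept interferon gamma response genes were higher (91.7%, against 37.0% of all kept genes) and 1 lower. Their median log2 difference was 1.24. The lower gene, Tap1, went from 88.4 ± 3.46 to 71.8 ± 3.42 CPM (SD, n = 3; limma adjusted p = 5.37e-07). Ifit1 went from 1.59 ± 0.0716 to 36.5 ± 1.34 CPM, and the GTPase genes Gbp3, Gbp2 and Gbp7 from 0.894 ± 0.255 to 13.4 ± 0.918, from 9.35 ± 1.06 to 71.7 ± 1.18 and from 5.27 ± 0.0858 to 21.8 ± 1.73 CPM (SD, n = 3). Lyz2, which is not in this list and was the only called gene of the myeloid list, went from 0.437 ± 0.205 to 15.3 ± 0.905 CPM. In WT the mean log2 values of Gbp3 (-0.14) and Lyz2 (-1.19) lay below the filter, so both were kept only through the libraries labelled Zfx F5. With the stricter filter 10 interferon gamma response genes were called higher and 1 lower.

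**Figure D4:**
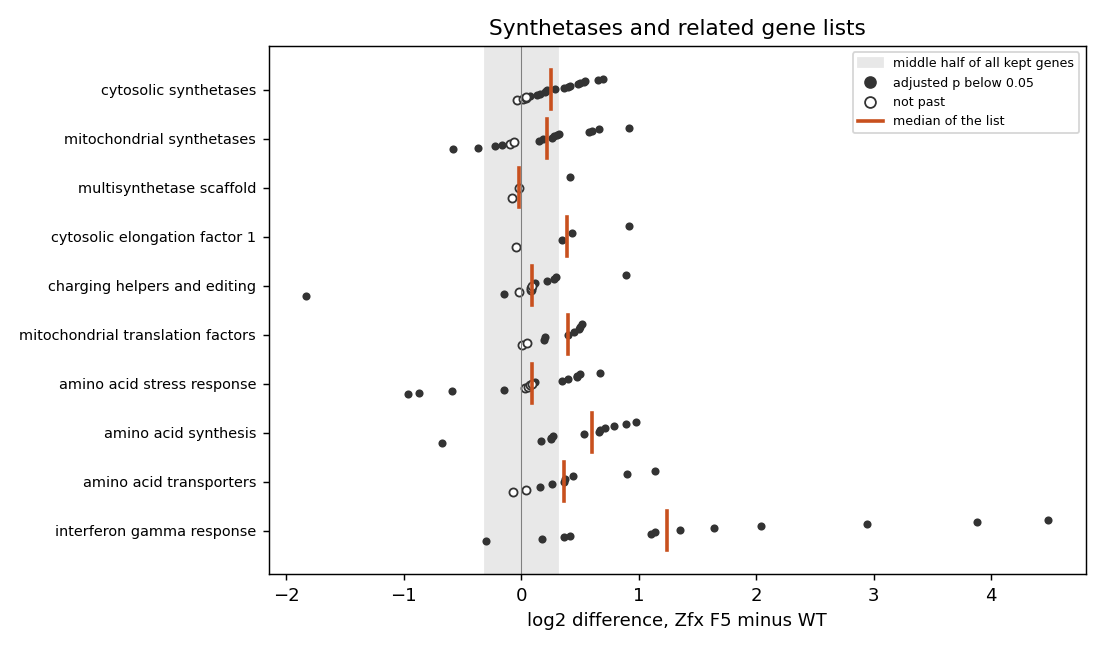
Log2 difference (labelled Zfx F5 minus WT) of each kept gene in the synthetase classes and 8 related lists; filled points passed an adjusted p of 0.05 in limma, open points did not, the orange bar is the list's median and the grey band spans the quartiles of all kept genes, -0.31 to 0.31. The cytosolic class has no filled point below 0, the mitochondrial class has 4, and Tarsl2 is the lowest point at -1.83.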

How the data were processed

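The deposited table held log2 values for 6 libraries, and the submitters' processing notes list the builds GRCh38 and mm10. An aligner and a counting program are not given in the sources used. Undoing the log2 and subtracting the common lowest value gave CPM columns, so the deposited log2 values are log2(CPM + 0.0353). Whole reads were recovered from the CPM steps; up to 300 reads, 100% of values were whole within 0.05 read. The authors' gene length column, another deposited value, is the summed exon length and gave CPM per kb. 0 sample columns were left unused. The series title, its design text and the table's name call the cells in vitro cultures, whereas the extract protocol in the labels names sorted tumour cells as the RNA source.

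The 12279 genes whose log2 values averaged 0 or more were fitted with limma 3.58.1 in R 4.3.3 (trend, robust moderation, 2-sided, Benjamini-Hochberg at 0.05), tested first on simulated data. Differences are the libraries labelled Zfx F5 minus WT. The limma SE is given for differences. Positions are from GENCODE M21 on mm10. The members and lists were chosen with earlier results of these data known; beside all members and Zfx, the naming rule took from each list up to 4 called genes with the largest differences. Aimp1, Eef1e1, Eef1d, Gatc, Glul, Atf4, Asns, Pdgfrb and Tap1 fall outside it and were chosen after their values were seen. No set test was run. Alternatives were a pseudocount of 1 CPM, no filter, a filter at 2, TMM scaling, median centring, plain moderation, voom weights and leaving out each library.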

Additional observations from a re-analysis of the deposited data

How the results depend on the processing

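Of 36 synthetase genes, 30 kept their direction and their side of the threshold in all 13 alternatives, and 456 of 468 single values did. The exceptions were Aars, Nars, Yars, Lars2, Ears2 and Rars2, and the cause was not tested. With TMM scaling the Yars difference turned to -0.02 (-0.0176), the cytosolic class had 1 lower member (Nars) and its median difference was 0.22, which median centring moved to 0.28. Leaving out 1 library gave 15 to 16 cytosolic members higher and 0 lower, and 9 to 10 mitochondrial members higher and 4 to 5 lower, with class medians of 0.24 to 0.27 and 0.18 to 0.24. Over all genes, the count of at least 2-fold differences was 1240, and it was 2454 with no filter on low values and 825 with the stricter filter. The voom fit, chosen after seeing the data, called the same number of members in each class and direction. The planned edgeR and DESeq2 fits were not run; the voom fit on the recovered reads stood in for them. Replacing Farsa by Farsb, also chosen after seeing the data, left 13 of the 14 ratios without overlap. No paired analysis was possible because the labels carry no replicate numbers, and those used here follow only the order of the sample records. With median centring the Aimp1 difference turned to 0.01 (0.0114). The smallest member value rests on 239 reads, and depth limits the mitochondrial members more than the cytosolic ones.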
